A study of Mus musculus with 8 samples.

Results

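The genes described here encode the enzymes of glycolysis, of the pyruvate dehydrogenase complex with its kinases, and of the citric acid cycle, in muscle stem cells (MuSCs) of denervated and innervated mouse muscle. They were chosen by gene symbol, 37 genes in all, of which 17 belong to glycolysis, 7 to pyruvate dehydrogenase and 13 to the citric acid cycle. These symbols matched 38 of the 55487 rows of the count table, since Aldoa stands on 2 rows. RNA was sequenced from MuSCs of 8 young male C57BL/6 J mice, 2 to 6 months old, with 1 library per mouse, at 21 days after unilateral surgery. In 4 DEN mice a piece of the sciatic nerve was removed, and in 4 Sham mice the nerve was located and left intact. The cells came from hind limb muscle and were sorted as alive, α7-integrin+, Sca-1-, CD11b-, CD31- and CD45-. The study left DEN replicate 1 out as an outlier of its scaling plot, so the tests compare DEN replicates 2 to 4 with Sham replicates 1 to 4, and DEN replicate 1 is given apart.

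Glycolysis splits glucose into pyruvate in the cytosol and yields ATP and NADH without oxygen, and lactate dehydrogenase turns pyruvate into lactate to regenerate NAD+. The pyruvate dehydrogenase complex converts pyruvate to acetyl-CoA in the mitochondrion and is switched off when pyruvate dehydrogenase kinases phosphorylate its E1 subunit. The citric acid cycle then oxidises acetyl-CoA and feeds the respiratory chain. Quiescent MuSCs are known to rely largely on mitochondrial oxidation, and activated MuSCs to raise glycolysis.

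Total counts were 28541080 to 31572843 in DEN replicates 2 to 4, 26627173 in DEN replicate 1 and 29048620 to 34145854 in the Sham libraries. All 7 MuSC markers were measured in every library and summed to 4219 to 4885 CPM (read counts normalized to library size) in DEN replicates 2 to 4, 4921 in DEN replicate 1 and 3541 to 4143 in Sham. By the test, 2 of them were higher in DEN (Myf5 and Cdh15), and the other 5, Pax7 and Itga7 included, did not pass. Some other sums differed between the groups too, and none of the genes in these lists was at 0 in all libraries. In the sums that follow, DEN stands for DEN replicates 2 to 4. Myofiber markers summed to 1038 to 1128 CPM in DEN and 562 to 776 CPM in Sham, with 10 of 14 higher and 1 lower by the test. Erythroid markers summed to 1957 to 2964 CPM in DEN and 5070 to 10199 CPM in Sham, with 5 of 7 lower. Immediate early and heat shock genes known to respond to tissue digestion summed to 7497 to 8189 CPM in DEN and 729 to 1620 CPM in Sham, with 8 of 10 higher. Proliferation genes summed to 118 to 132 CPM in DEN and 90.8 to 109 CPM in Sham, with 1 of 8 higher (Pcna). Glial markers summed to 126 to 271 CPM in DEN and 254 to 375 CPM in Sham, with 2 of 6 higher and 2 lower. Macrophage and myeloid markers summed to 3.14 to 112 CPM in DEN, highest in DEN replicate 2, and 15.03 to 50.6 CPM in Sham. The sums of glial, myeloid, endothelial, fibro-adipogenic progenitor and smooth muscle and pericyte markers overlapped between the groups. Smooth muscle and pericyte markers summed to 8029 to 8369 CPM in DEN and 7913 to 10479 CPM in Sham, with 1 of 6 higher and 2 lower. In DEN replicate 1, the sums were 1327 CPM for myofiber, 1593 CPM for erythroid and 6375 CPM for the digestion-responsive genes. They were 64.9 CPM for glial, 1.27 CPM for myeloid and 7201 CPM for smooth muscle and pericyte markers there. Genes of the mitochondrial genome made up 2.35% to 2.84% of the reads in DEN replicates 2 to 4, 2.80% in DEN replicate 1 and 3.67% to 5.99% in Sham. The part of these differences in the values below was not tested, and fewer cells of a type cannot be told from less RNA per cell in such samples.

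The share of these enzymes called between DEN and Sham MuSCs by the edgeR test was near that of all genes. In that test, no pathway had more than 1 gene called higher or more than 1 called lower. Of 36 members that passed the filter on low counts, 2 were higher in DEN (Pgk1 and Pdk3) and 2 were lower (Pfkm and Idh2) at an adj. p-value under 0.05 in edgeR's quasi-likelihood test. That is 4 of 36, where 10.6% of all 17454 genes tested passed, 5.29% higher and 5.32% lower. By pathway, the test called 1 of 16 glycolysis genes higher and 1 lower, 1 of 7 pyruvate dehydrogenase genes higher, and 1 of 13 citric acid cycle genes lower. The remaining 32 members did not pass. An unadjusted p under 0.05 in the same test was found for 13 of the 36 members and for 4432 of all 17454 genes. DESeq2 on the same 7 libraries called 8 members, adding Eno1, Ldha and Tpi1 (higher) and Pdk1 (lower). Of the 19818 genes to which it gave an adjusted p, 13.2% passed, 6.57% higher and 6.62% lower. In DESeq2 the share of the 36 members called was thus above that of all genes, and more than 1 glycolysis gene was called higher.

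The small differences leaned upward. The log2 fold change was above 0 for 27 of 36 members, against 49.9% of all genes tested, and its median was 0.10 against a median of -0.0010 over all genes. The median was 0.15 for glycolysis, 0.04 for pyruvate dehydrogenase and 0.07 for the citric acid cycle. In glycolysis 7 genes had all DEN libraries above all Sham libraries and 2 had them below, in pyruvate dehydrogenase 2 above and 1 below, and in the citric acid cycle 3 above and 1 below. Of all genes tested, 23.4% did not overlap, 12.1% with DEN above and 11.3% with DEN below. With DEN replicate 1 counted in, 11 members kept all 4 DEN libraries above all Sham libraries (9.45% of all genes did) and 0 kept them below (8.65% of all genes did).

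**Figure D1:**
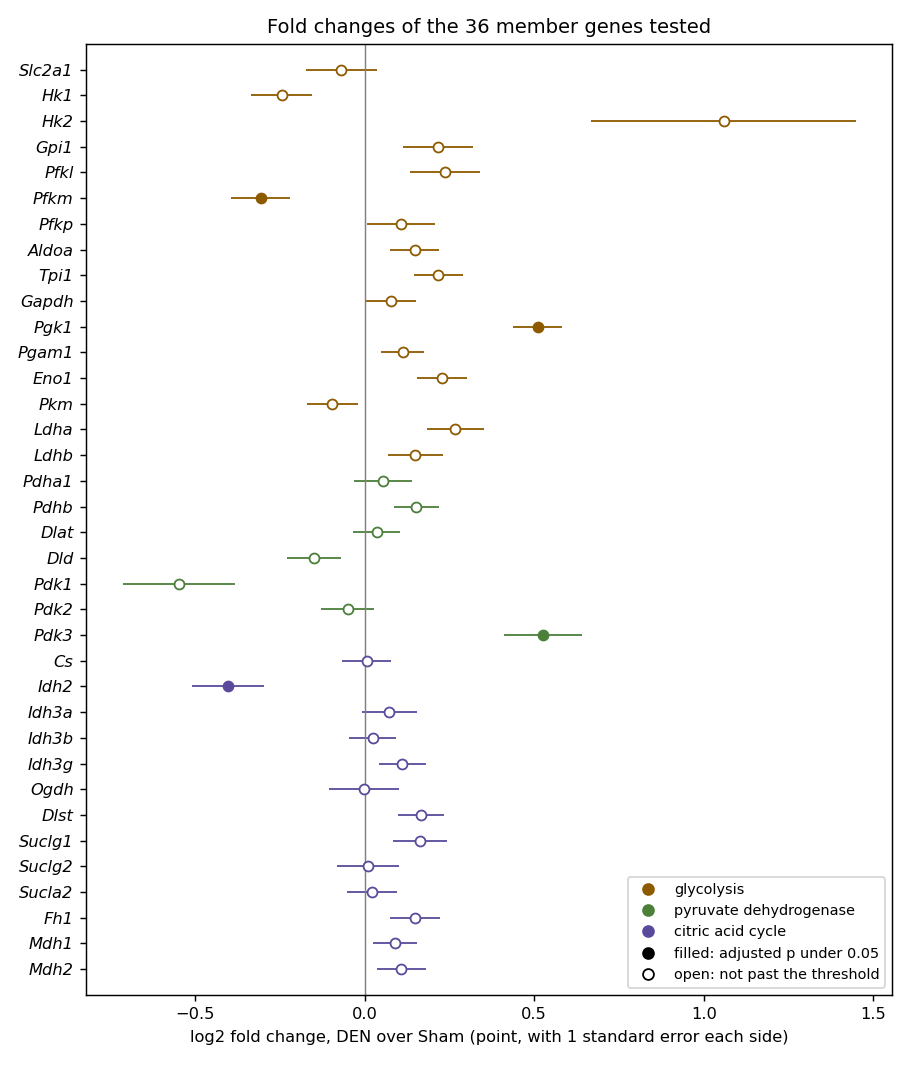
Log2 fold change, DEN over Sham, of the 36 members tested, in pathway order from glucose uptake at the top to malate dehydrogenase at the bottom, with 1 standard error (SE) on each side. Colours mark the pathway and filled points an adj. p-value under 0.05. Pgk1 (0.51) and Pdk3 (0.53) lie to the right and Pfkm (-0.31) and Idh2 (-0.40) to the left, while Hk2 (1.06) is farthest from 0 and has the widest error.

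Pgk1 encodes phosphoglycerate kinase, which makes the first ATP of the payoff phase of glycolysis, and lies on chromosome X (106187100 to 106203699, + strand, GRCm38). It measured 163, 172 and 161 CPM in DEN replicates 2 to 4, and 123, 108, 111 and 121 CPM in Sham replicates 1 to 4. No DEN library overlapped with Sham, and DEN replicate 1 was the highest of all with 179 CPM. Pgk1 rose 1.43-fold (log2 fold change 0.51, SE 0.07, edgeR adj. p-value 0.0017), and it passed under all 16 alternative settings.

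Pdk3 encodes a pyruvate dehydrogenase kinase, which inactivates the complex by phosphorylation, and lies on chromosome X (93764607 to 93832201, - strand). Its levels were 26.3, 25.3 and 22.3 CPM in DEN replicates 2 to 4, against 16.7, 15.4, 17.0 and 19.3 CPM in Sham replicates 1 to 4. DEN replicate 1 had 24.8 CPM, within the other DEN libraries, and no DEN library overlapped with Sham. Pdk3 rose 1.44-fold (log2 fold change 0.53, SE 0.11, edgeR adj. p-value 0.0165). The call was lost without DEN replicate 2 (adj. p-value 0.0702) and without DEN replicate 3 (0.0568), with log2 fold changes of 0.48 and 0.51.

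Idh2 encodes the mitochondrial NADP-dependent isocitrate dehydrogenase, which yields NADPH, and lies on chromosome 7 (80094846 to 80115392, - strand). It had 207, 231 and 213 CPM in DEN replicates 2 to 4, and 234, 296, 291 and 326 CPM in Sham replicates 1 to 4. The groups were separated by a narrow gap, and DEN replicate 1, with 245 CPM, lay above the lowest Sham library. Idh2 fell to 0.756 of its Sham level (log2 fold change -0.40, SE 0.11, edgeR adj. p-value 0.0359). With all 8 libraries it was -0.36 (adj. p-value 0.0416), and the call was lost when any single library other than Sham replicate 1 was left out (adj. p-value 0.062 to 0.13).

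Pfkm encodes the muscle isoform of phosphofructokinase, the main control point of glycolysis, and lies on chromosome 15 (98092589 to 98132451, + strand). Its levels were 36.3, 37.5 and 34.7 CPM in DEN replicates 2 to 4, against 43.8, 44.2, 41.8 and 49.2 CPM in Sham replicates 1 to 4. DEN replicate 1 had 46.1 CPM, a Sham-like value, so the lower level was shared by 3 of 4 DEN libraries. Pfkm fell to 0.809 of its Sham level (log2 fold change -0.31, SE 0.09, edgeR adj. p-value 0.0483). It did not pass with all 8 libraries (-0.22, adj. p-value 0.203), nor after leaving out any 1 of the 7 (adj. p-value 0.0562 to 0.139). Of its 3340 exon bases, 359 overlap with exons of Gm26513 on the same strand or Senp1 on the opposite strand, and the counting took no account of strand.

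**Figure D2:**
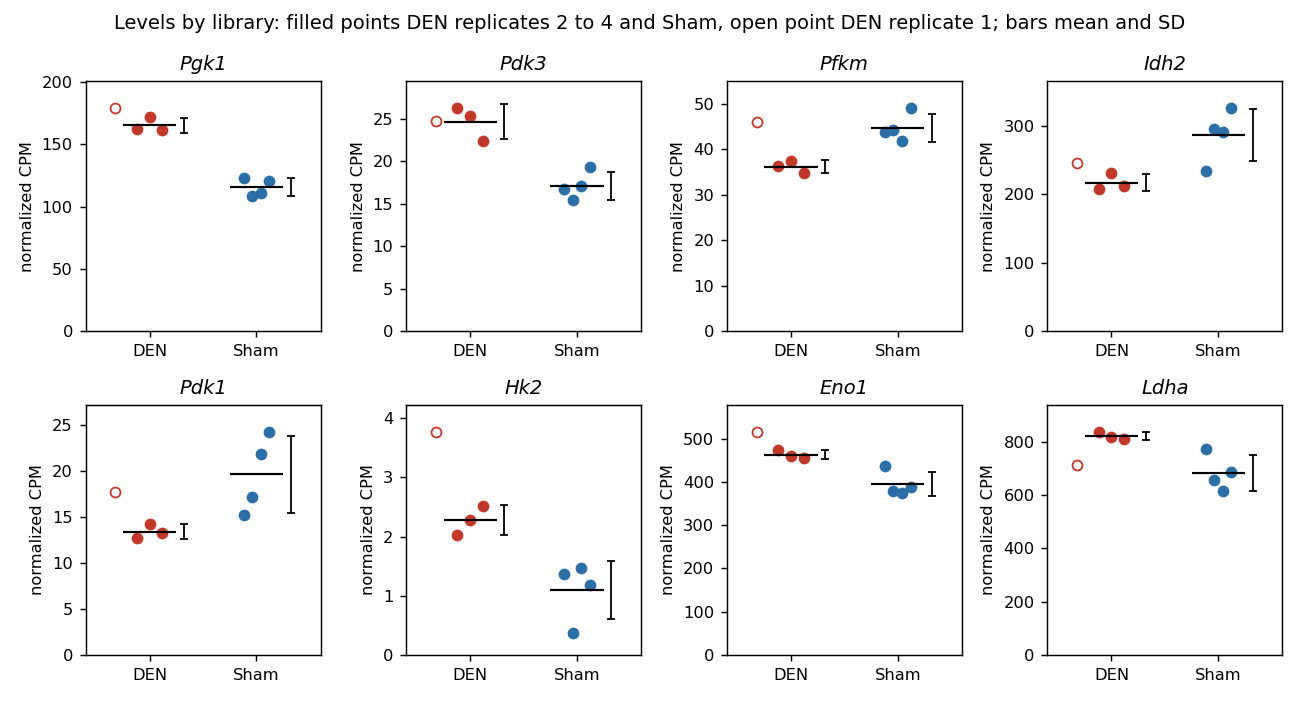
Normalized CPM of 8 members in each library, with the DEN libraries left of the Sham libraries, the mean as a line and the SD as a bar. Filled points are DEN replicates 2 to 4 and Sham replicates 1 to 4, and the open point is DEN replicate 1. Pgk1 and Pdk3 show 4 DEN libraries above all Sham libraries, while the open point of Pfkm (46.1 CPM) lies among the Sham libraries.

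The promoters of the called members are shown with the short core that hypoxia-inducible and other basic helix-loop-helix factors can bind. Binding was not tested. The sequences are the 250 bases before the first annotated start from RefSeq (GRCm38.p6), less any that lie within the gene in GENCODE M21. This left 199 bases for Pdk3 and 208 for Idh2. The sequences are written 5′ to 3′ on the gene's strand, and capitals mark ACGTG or GCGTG on either strand (CACGT and CACGC on the other strand). They lie at chrX:106186850-106187099 (Pgk1), chrX:93832202-93832400 (Pdk3), chr7:80115393-80115600 (Idh2) and chr15:98092339-98092588 (Pfkm, 1 of 4 annotated starts).
Pgk1: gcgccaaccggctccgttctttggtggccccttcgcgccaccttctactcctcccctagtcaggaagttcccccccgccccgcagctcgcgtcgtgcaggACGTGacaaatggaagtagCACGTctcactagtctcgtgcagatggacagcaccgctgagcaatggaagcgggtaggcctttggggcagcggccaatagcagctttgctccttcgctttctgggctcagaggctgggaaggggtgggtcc
Pdk3: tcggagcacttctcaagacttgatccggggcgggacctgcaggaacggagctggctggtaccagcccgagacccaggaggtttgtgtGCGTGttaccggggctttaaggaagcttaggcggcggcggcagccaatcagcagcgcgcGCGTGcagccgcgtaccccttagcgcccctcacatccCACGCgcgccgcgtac
Idh2: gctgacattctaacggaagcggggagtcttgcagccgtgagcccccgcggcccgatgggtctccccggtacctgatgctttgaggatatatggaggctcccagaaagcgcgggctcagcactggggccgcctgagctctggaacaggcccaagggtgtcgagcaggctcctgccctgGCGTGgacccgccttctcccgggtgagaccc
Pfkm: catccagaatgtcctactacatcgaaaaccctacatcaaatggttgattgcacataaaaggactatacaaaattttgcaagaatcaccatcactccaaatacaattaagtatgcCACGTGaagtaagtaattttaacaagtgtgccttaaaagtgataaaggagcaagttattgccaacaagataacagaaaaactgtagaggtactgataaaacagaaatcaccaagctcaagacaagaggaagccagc
Pgk1 shows 2 cores, Pdk3 3, Idh2 1, and Pfkm 2 that overlap as the palindrome CACGTG. The uncut 250 bases of Pdk3 held 4. Before the other Pfkm starts, the 250 bases at chr15:98108221-98108470 held 2 cores and those at chr15:98108306-98108555 held 1. Those at chr15:98111810-98112059 held none. Within 250 bases before any of a gene's starts, a core was present in 15 of 17 glycolysis genes, 5 of 7 pyruvate dehydrogenase genes and 7 of 12 citric acid cycle genes with an entry. It was present in 41.5% of all 27025 genes with an entry, in 59.8% of the 11236 of them that were tested, and in 38.6% of all 32851 promoters, against 72.2% of the members' 54 promoters. CACGTG itself was in 2 glycolysis genes, 1 pyruvate dehydrogenase gene and 1 citric acid cycle gene, and in 6.86% of all genes. A match is a description of the letters only.

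In glycolysis, the genes of uptake and of the first phosphorylation did not pass the test. Slc2a1, the basal glucose transporter GLUT1, averaged 48.7 ± 5.93 CPM in DEN (SD, n = 3) and 51.1 ± 4.58 CPM in Sham (SD, n = 4). Hk1, the hexokinase with the higher level here, had 156, 189 and 200 CPM in DEN replicates 2 to 4, 211 CPM in DEN replicate 1, and 222, 208, 205 and 226 CPM in Sham replicates 1 to 4. The DEN libraries of the test lay below all Sham libraries, with a log2 fold change of -0.24 (SE 0.09, edgeR adj. p-value 0.12).

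Hk2, the insulin-responsive hexokinase of muscle, was measured by few reads. It had 2.03, 2.28 and 2.53 CPM in DEN replicates 2 to 4, 3.78 CPM in DEN replicate 1, and 1.36, 0.379, 1.46 and 1.19 CPM in Sham replicates 1 to 4. Hk2 was higher in each of the 4 DEN libraries than in any Sham library, on 60 to 98 counts per DEN library and 13 to 45 per Sham library. Its log2 fold change was 1.06 (SE 0.39, edgeR adj. p-value 0.117), so the difference did not pass.

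Phosphofructokinase was measured as all of its isoforms. Pfkl, the liver isoform, had 61.4, 72.5 and 66.9 CPM in DEN replicates 2 to 4, 74.6 CPM in DEN replicate 1, and 47.4, 61.6, 57.9 and 60.4 CPM in Sham replicates 1 to 4. Pfkp, the platelet isoform, had 199, 165 and 178 CPM in DEN replicates 2 to 4, 219 CPM in DEN replicate 1, and 162, 193, 146 and 169 CPM in Sham replicates 1 to 4. Both overlapped between the groups and neither passed (log2 fold changes 0.24 and 0.11, edgeR adj. p-values 0.185 and 0.57). Gpi1, which isomerises glucose 6-phosphate, averaged 255 ± 37.8 CPM in DEN and 219 ± 16.7 CPM in Sham (edgeR adj. p-value 0.217).

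Of 16 glycolysis genes tested, 7 had DEN above Sham in every library of the test, where 12.1% of all genes did. They were Hk2, Aldoa, Tpi1, Pgk1, Pgam1, Eno1 and Ldha, and Pgk1 alone passed in edgeR. Aldoa, the muscle aldolase and the member with the highest level, had 1581, 1658 and 1639 CPM in DEN replicates 2 to 4, 1725 CPM in DEN replicate 1, and 1387, 1451, 1468 and 1565 CPM in Sham replicates 1 to 4. All 4 DEN libraries lay above all Sham libraries by a narrow margin, with a log2 fold change of 0.15 (SE 0.07, edgeR adj. p-value 0.233). Its second row, a gene model just upstream on the same strand, held only 1.36 ± 0.233 CPM in DEN and 1.39 ± 0.417 CPM in Sham. Aldoc, the brain aldolase, failed the filter, with 8, 0 and 6 counts in DEN replicates 2 to 4, 22 counts in DEN replicate 1, and 0, 8, 10 and 7 counts in Sham replicates 1 to 4.

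Tpi1, triosephosphate isomerase, averaged 333 ± 16.8 CPM in DEN and 287 ± 16.8 CPM in Sham, with no overlap (log2 fold change 0.22, edgeR adj. p-value 0.0855). Eno1, the ubiquitous enolase, had 474, 459 and 454 CPM in DEN replicates 2 to 4, 516 CPM in DEN replicate 1, and 435, 379, 375 and 389 CPM in Sham replicates 1 to 4. Eno1 did not overlap between the groups but missed the threshold (log2 fold change 0.23, SE 0.07, edgeR adj. p-value 0.0752). Pgam1, phosphoglycerate mutase, averaged 193 ± 3.77 CPM in DEN and 178 ± 5.62 CPM in Sham, again with no overlap and without passing (edgeR adj. p-value 0.3).

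In the lower pathway, Gapdh and Pkm overlapped between DEN and Sham. Gapdh, which oxidises glyceraldehyde 3-phosphate, had 625, 636 and 567 CPM in DEN replicates 2 to 4, 780 CPM in DEN replicate 1, and 554, 567, 572 and 617 CPM in Sham replicates 1 to 4. Pkm, the muscle pyruvate kinase, had 952, 1001 and 941 CPM in DEN replicates 2 to 4, 1156 CPM in DEN replicate 1, and 976, 1006, 1016 and 1123 CPM in Sham replicates 1 to 4. Gapdh (log2 fold change 0.08, SE 0.07) and Pkm (-0.09, SE 0.07) did not pass (edgeR adj. p-values 0.578 and 0.49).

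Ldha, the lactate dehydrogenase subunit that favours lactate formation, had 840, 820 and 811 CPM in DEN replicates 2 to 4 and 774, 656, 618 and 688 CPM in Sham replicates 1 to 4. DEN replicate 1, with 715 CPM, lay between Sham replicates 1 and 4, so the separation held for the other DEN libraries only. The log2 fold change was 0.27 (SE 0.08, edgeR adj. p-value 0.072). Ldhb, the subunit that favours pyruvate, had 177, 202 and 184 CPM in DEN replicates 2 to 4, 186 CPM in DEN replicate 1, and 166, 180, 177 and 153 CPM in Sham replicates 1 to 4, with overlap (log2 fold change 0.15, edgeR adj. p-value 0.277).

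Within the pyruvate dehydrogenase complex, 0 of the 4 subunit genes passed the edgeR test (1, Pdhb, had an unadjusted p under 0.05, and DESeq2 called 0). Of the 3 kinase genes, Pdk3 alone passed in edgeR. Pdha1, the E1α subunit that the kinases phosphorylate, had 179, 178 and 181 CPM in DEN replicates 2 to 4, 165 CPM in DEN replicate 1, and 152, 169, 176 and 195 CPM in Sham replicates 1 to 4. The DEN libraries lay in the middle of the Sham range (log2 fold change 0.05, SE 0.09, edgeR adj. p-value 0.763). Pdhb (E1β) averaged 136 ± 6.29 CPM in DEN and 123 ± 3.27 CPM in Sham, with no overlap but an edgeR adj. p-value of 0.178. Dlat (E2) had a log2 fold change of 0.04 and Dld (E3, shared with other dehydrogenases) one of -0.15, with edgeR adj. p-values of 0.81 and 0.286.

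Pdk2, the kinase with the highest level of the 3 members, had 118, 112 and 102 CPM in DEN replicates 2 to 4, 116 CPM in DEN replicate 1, and 115, 108, 123 and 111 CPM in Sham replicates 1 to 4, with overlap (log2 fold change -0.05, edgeR adj. p-value 0.762). Pdk1, a kinase gene known to be a target of hypoxia-inducible factor, had 12.7, 14.3 and 13.3 CPM in DEN replicates 2 to 4, 17.8 CPM in DEN replicate 1, and 15.2, 17.2, 21.9 and 24.3 CPM in Sham replicates 1 to 4. DEN replicates 2 to 4 lay below all Sham libraries and DEN replicate 1 did not. The log2 fold change was -0.55 (SE 0.17, edgeR adj. p-value 0.0626), opposite in sign to that of Pdk3. Per length, the levels averaged 34.8 RPKM (reads per kilobase of exon, scaled to library size) in DEN and 36.1 RPKM in Sham for Pdk2, 9.61 and 6.69 RPKM for Pdk3, and 1.73 and 2.52 RPKM for Pdk1.

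In the citric acid cycle, Idh2 was the only member to pass, and 11 of 13 members had a log2 fold change above 0, the highest being 0.17. Cs, citrate synthase, which starts the cycle, had 261, 251 and 269 CPM in DEN replicates 2 to 4, 280 CPM in DEN replicate 1, and 261, 259, 237 and 279 CPM in Sham replicates 1 to 4. The ranges covered each other (log2 fold change 0.01, SE 0.07, edgeR adj. p-value 0.97). Idh3a, Idh3b and Idh3g, the subunits of the NAD-dependent isocitrate dehydrogenase, had log2 fold changes of 0.07, 0.02 and 0.11, and all overlapped between the groups. None of them passed (edgeR adj. p-values 0.646, 0.879 and 0.368), so no direction can be read for the NAD-dependent enzyme.

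Of the 2-oxoglutarate dehydrogenase complex, Ogdh (E1) averaged 347 ± 20.1 CPM in DEN and 347 ± 46.3 CPM in Sham. Dlst (E2) averaged 166 ± 8.83 CPM in DEN and 148 ± 5.63 CPM in Sham, with no overlap and an edgeR adj. p-value of 0.155. Fh1, fumarase, averaged 111 ± 2.38 CPM in DEN and 100.1 ± 6.55 CPM in Sham, and Mdh1, the cytosolic malate dehydrogenase, 291 ± 2.45 CPM in DEN and 273 ± 13.1 CPM in Sham. Dlst, Fh1 and Mdh1 had all 4 DEN libraries above all Sham libraries, and none passed (log2 fold changes 0.17, 0.15 and 0.09). Mdh2, the mitochondrial malate dehydrogenase, had a log2 fold change of 0.11 with overlap (edgeR adj. p-value 0.399).

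Succinyl-CoA ligase joins a shared subunit, Suclg1, with either Sucla2, which makes ATP, or Suclg2, which makes GTP. Suclg1 averaged 139 ± 14.1 CPM in DEN and 124 ± 4.28 CPM in Sham (log2 fold change 0.16, edgeR adj. p-value 0.23). Sucla2 had 144, 132 and 149 CPM in DEN replicates 2 to 4, 142 CPM in DEN replicate 1, and 130, 138, 140 and 149 CPM in Sham replicates 1 to 4. Suclg2 had 69.8, 69.9 and 66.7 CPM in DEN replicates 2 to 4, 70.3 CPM in DEN replicate 1, and 64.6, 65.4, 64.2 and 79.2 CPM in Sham replicates 1 to 4. Both overlapped fully, with log2 fold changes of 0.02 and 0.01.

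Read per length, so that genes can be compared, the members spanned a wide range. Averaged over the 7 libraries, Aldoa had 527 RPKM, Ldha 225, Pkm 200 and Gapdh 143 RPKM in glycolysis. The highest of the citric acid cycle were Mdh1 with 105 RPKM and Idh2 with 99.2 RPKM, and the highest of pyruvate dehydrogenase was Pdha1 with 47.0 RPKM. The value of Gapdh is that of its own row, and near-identical copies held 70.2% to 70.9% of the reads of Gapdh and copies together, so its place in this order is uncertain. The lowest members were Aldoc with 0.0568 RPKM, Hk2 with 0.268 RPKM and Pdk1 with 2.18 RPKM.

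Summed over its 17 genes, glycolysis was higher in DEN MuSCs, while the sums of the other groups overlapped. The glycolysis sum was 1723, 1801 and 1732 RPKM in DEN replicates 2 to 4, 1832 RPKM in DEN replicate 1, and 1588, 1581, 1554 and 1641 RPKM in Sham replicates 1 to 4. The pyruvate dehydrogenase sum was 187, 177 and 179 RPKM in DEN replicates 2 to 4, against 169, 177, 183 and 183 RPKM in Sham replicates 1 to 4. The citric acid cycle sum was 691, 696 and 674 RPKM in DEN replicates 2 to 4, against 663, 695, 653 and 722 RPKM in Sham replicates 1 to 4. Every DEN library exceeded every Sham library in glycolysis, and DEN and Sham were interleaved in the other groups.

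The ratio of the glycolysis sum to the sum of both other groups was 1.965, 2.06 and 2.03 in DEN replicates 2 to 4 and 2.06 in DEN replicate 1. It was 1.91, 1.81, 1.86 and 1.81 in Sham replicates 1 to 4, below every DEN library. Without Aldoa, which gave the largest share, it was 1.35, 1.41 and 1.37 in DEN replicates 2 to 4 and 1.33, 1.24, 1.26 and 1.22 in Sham replicates 1 to 4. The groups still did not overlap, with the lowest DEN and the highest Sham library close together. These sums are descriptions of genes chosen as a list and were given no test. The median log2 fold change of glycolysis exceeded that of the citric acid cycle by 0.08 and that of pyruvate dehydrogenase by 0.11, and the SD of these differences between libraries was 0.04 and 0.06.

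**Figure D3:**
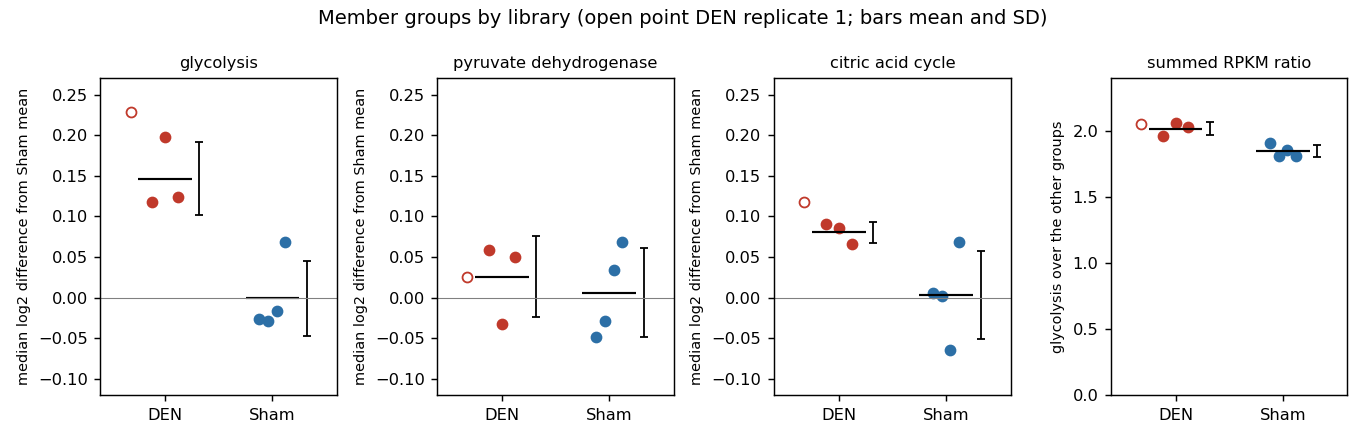
In the first 3 panels each point is a library's median log2 difference from the Sham mean over the genes of a group, and in the last panel the ratio of summed RPKM of glycolysis to that of pyruvate dehydrogenase and the citric acid cycle. Lines are means and bars SDs, and the open point is DEN replicate 1. The DEN libraries lie above all Sham libraries for glycolysis (0.12 to 0.20 in DEN replicates 2 to 4, -0.03 to 0.07 in Sham) and for the ratio (1.965 to 2.06 and 1.81 to 1.91), and overlap with Sham in the other panels.

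Isoform ratios were compared within each library, where scaling between libraries cancels. Of 8 ratios set, Aldoc over Aldoa could not be formed because Aldoc had no counts in some libraries, and the other 7 were tested by an exact two-sided permutation of the group labels (35 arrangements). The smallest p this allows is 0.0286, and none of the 7 passed after Benjamini-Hochberg adjustment over the ratios. Even that smallest p can pass the adjustment only where most of the 7 ratios share it. A ratio that separated the groups fully could therefore not pass alone. For 5 of the 7 ratios the DEN libraries did not overlap with Sham, each with an adjusted exact p of 0.08.

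The ratio of Pfkl to Pfkm was 0.847, 0.967 and 0.964 in DEN replicates 2 to 4, 0.81 in DEN replicate 1, and 0.542, 0.697, 0.694 and 0.614 in Sham replicates 1 to 4. Its log2 difference was 0.55 (exact permutation p = 0.0286). Pfkp over Pfkm was 1.37, 1.09 and 1.28 in DEN replicates 2 to 4, 1.18 in DEN replicate 1, and 0.924, 1.09, 0.873 and 0.855 in Sham replicates 1 to 4, with a log2 difference of 0.42 (exact permutation p = 0.0571). Relative to both other isoforms, Pfkm was lower in each of the 4 DEN libraries than in any Sham library, with the lowest DEN and the highest Sham ratio of Pfkp nearly equal (1.094 and 1.085).

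Pdk3 over Pdk2 was 0.276, 0.28 and 0.271 in DEN replicates 2 to 4, 0.264 in DEN replicate 1, and 0.179, 0.177, 0.172 and 0.215 in Sham replicates 1 to 4. The log2 difference was 0.58 (exact permutation p = 0.0286). Pdk1 over Pdk2 was 0.0439, 0.0522 and 0.0531 in DEN replicates 2 to 4, 0.0624 in DEN replicate 1, and 0.0539, 0.0649, 0.0724 and 0.089 in Sham replicates 1 to 4. Its log2 difference was -0.48 (exact permutation p = 0.0571), and DEN replicate 1 lay inside the Sham range. Hk2 over Hk1 was 0.0186, 0.0173 and 0.018 in DEN replicates 2 to 4 and 0.0256 in DEN replicate 1, against 0.00876, 0.00261, 0.0102 and 0.0075 in Sham replicates 1 to 4 (log2 difference 1.47, exact permutation p = 0.0571).

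The remaining ratios overlapped between the groups. Ldhb over Ldha had a geometric mean of 0.479 in DEN and 0.521 in Sham (log2 difference -0.12, exact permutation p = 0.429). Sucla2 over Suclg2 had a geometric mean of 2.38 in DEN and 2.37 in Sham (log2 difference 0.01, exact permutation p = 0.914), with SDs of 0.12 and 0.10 on the log2 scale.

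**Figure D4:**
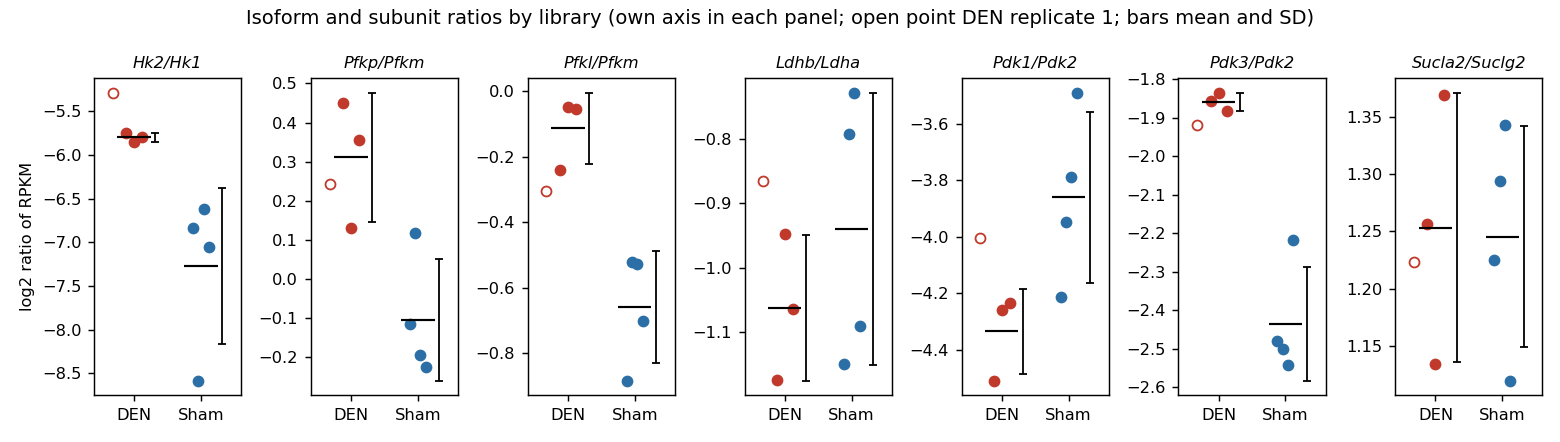
Log2 ratio of RPKM of 7 pairs of isoforms or subunits in each library, DEN left of Sham, each panel on its own axis. Lines are means, bars SDs, and the open point is DEN replicate 1. DEN replicates 2 to 4 and Sham separate for the hexokinase, phosphofructokinase and kinase pairs, with DEN replicate 1 inside the Sham range for Pdk1/Pdk2, and overlap for Ldhb/Ldha (-1.06 in DEN and -0.94 in Sham on average) and Sucla2/Suclg2 (1.25 in both).

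Several glycolysis genes have near-identical copies elsewhere in the genome, and reads with many equal alignments were kept at 1 place only. For Gapdh, 79 annotated genes (75 of them pseudogenes) matched at least 25% of its coding sequence at 95% identity or more, and they held 70.2% to 70.9% of the counts of Gapdh and its copies in the 8 libraries. For Pgk1 4 such pseudogenes held 34.1% to 36.1%, and for Eno1 3 copies, among them Eno1b, held 33.3% to 33.8%. The share was 13.7% to 15.5% for Pgam1, 8.31% to 9.92% for Pdhb, 3.64% to 6.81% for Suclg2, Pkm, Ldhb and Gpi1, and under 0.6% for Ldha and Tpi1. Which of these reads match a member and a copy equally well was not tested, so how many of the reads counted to copies belong to the member is not known.

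The copies of Pgk1 were also higher in DEN replicates 2 to 4 than in any Sham library. They summed to 91.9 ± 4.46 CPM in DEN and 61.3 ± 2.96 CPM in Sham. With copies added to their members, Pgk1 and its copies reached 257 ± 10.001 CPM in DEN and 177 ± 9.95 CPM in Sham (log2 fold change 0.54, SE 0.07, edgeR adj. p-value 0.00098). Gapdh and its copies reached 2070.3 ± 106 CPM in DEN and 1957 ± 93.2 CPM in Sham (log2 fold change 0.08, edgeR adj. p-value 0.565). The same 4 members were called in this setting.

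**Figure D5:**
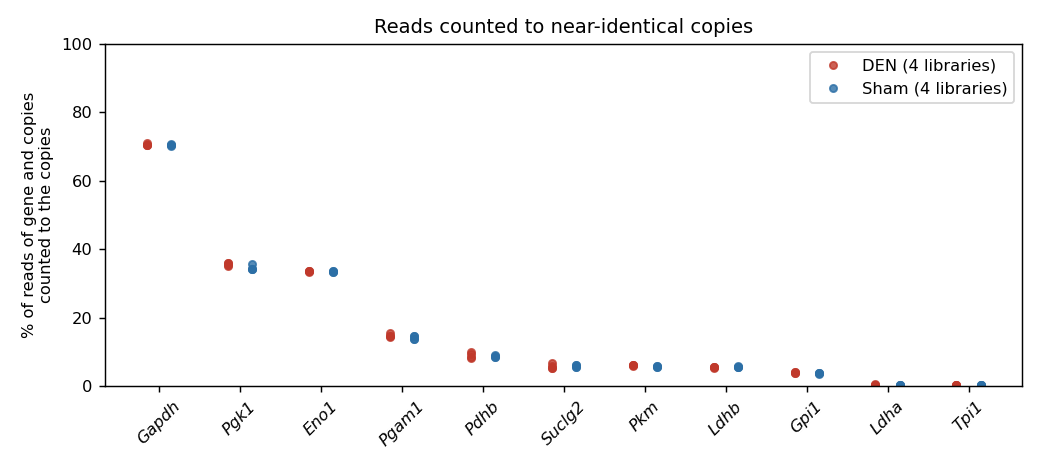
Share of the reads of a member and its near-identical copies that was counted to the copies, in percent, for 11 members, with a point for each of the 4 DEN and 4 Sham libraries. The share is about the same in every library of a gene, from 70.2% to 70.9% for Gapdh to under 0.6% for Tpi1.

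DEN replicate 1 shared the upward lean and none of the downward separations. It lay above all Sham libraries for 24 of the 36 members tested and for 32.2% of all genes tested, within the Sham range for 11 members, and below it for 1 member and for 31.5% of all genes. With all 8 libraries in the test, edgeR called Pgk1, Eno1, Tpi1 and Pdk3 higher and Idh2 lower, where 11.5% of 17008 genes passed, 5.73% higher and 5.8% lower. Pfkm was no longer called.

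Other genes of these pathways were taken from lists set by function, and few of each list were called, where 10.6% of all genes passed. Of 21 further glycolysis, transport and lactate genes tested, 1 was higher and 2 were lower, a share near that of all genes. Pgam2, the muscle phosphoglycerate mutase, had 17.6, 15.6 and 14.8 CPM in DEN replicates 2 to 4, and 9.86, 8.80, 9.95 and 10.96 CPM in Sham replicates 1 to 4 (log2 fold change 0.70, SE 0.13, edgeR adj. p-value 0.0066). Pgam2 rose in every DEN library, DEN replicate 1 included with 19.5 CPM, as did the summed myofiber markers given above, and their part in this result was not tested.

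Bpgm, which makes 2,3-bisphosphoglycerate in red cells, had 27.3, 27.5 and 35.9 CPM in DEN replicates 2 to 4, and 63.0, 51.2, 46.4 and 38.4 CPM in Sham replicates 1 to 4 (log2 fold change -0.72, SE 0.16, edgeR adj. p-value 0.0205). Bpgm fell along with the erythroid markers, whose part in this result was not tested. Slc16a1, the lactate and pyruvate carrier MCT1, averaged 68.1 ± 5.06 CPM in DEN and 99.1 ± 19.5 CPM in Sham (log2 fold change -0.54, SE 0.13, edgeR adj. p-value 0.03), and DEN replicate 1 had 93.7 CPM, within the Sham range.

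Of 10 further genes of pyruvate entry, 1 was called higher, again a share near the 10.6% of all genes. Pdp1, the phosphatase that reactivates pyruvate dehydrogenase and so opposes the kinases, had 135, 129 and 113 CPM in DEN replicates 2 to 4, 146 CPM in DEN replicate 1, and 85.3, 85.1, 96.6 and 98.3 CPM in Sham replicates 1 to 4. Pdp1 rose in all DEN libraries (log2 fold change 0.46, SE 0.09, edgeR adj. p-value 0.0084), so that a kinase gene and a phosphatase gene of the complex were both higher. Pdk4, the remaining kinase, had 32.9 RPKM in DEN and 33.0 RPKM in Sham on average (log2 fold change -0.0007, SE 0.14, edgeR adj. p-value 0.998). Of 21 further genes of the citric acid cycle and its shuttles, 1 was called, a share below that 10.6%. Me1, the cytosolic malic enzyme, which yields NADPH, rose to 9.09 ± 0.986 CPM in DEN, against 5.41 ± 0.794 CPM in Sham (log2 fold change 0.75, SE 0.16, edgeR adj. p-value 0.0173).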

How the data were processed

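MuSC RNA of 4 DEN and 4 Sham mice was amplified with SMART-Seq v4, made into libraries with Nextera XT and read from single ends. The authors mapped trimmed reads to GRCm38, kept 1 alignment per read and counted without strand. The submitters' processing notes name TopHat2 (2.1.0), featureCounts (1.6.5), cutadapt (2.1) and bcl2fastq (2.20.0.422) for these steps. The deposited counts are whole reads per gene. For the deposited RPM, the authors scaled each library to its own read total. The deposited RPKM values are RPM divided by the authors by a gene length, which equalled the summed exons of GENCODE M21 for 37 of the 38 rows.

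Counts were filtered with filterByExpr (minimum count 10, total 15), scaled by TMM and tested by edgeR 4.0.16 (R 4.3.3), with Benjamini-Hochberg adjustment over all 17454 genes and a threshold of 0.05. The study used DESeq2. Each SE was worked back from the edgeR test, as the size of the log2 fold change over the square root of its F statistic. CPM are TMM-normalized. Levels were compared between genes on RPKM. Ratios were tested by exact permutation. Copies were found with BLAST 2.17.0, at 95% identity over at least 75 bases and 25% of the coding sequence. The biological coefficient of variation was 0.161, and libraries of 1 group differed by 16.5 to 47.0 times counting noise. The fit was tested on simulated data. Alternatives were all 8 libraries, DESeq2 1.42.0, RLE scaling, no filter, limma 3.58.1 on log2(RPM + 0.5), totals without mitochondrial genes, a replicate block, each library left out and, chosen after seeing the data, copies added to their members.

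The members, lists and ratios were chosen with earlier results of these data known. Values in every library are given for called members, both genes of each ratio, Gapdh, Pkm, Pdha1 and Cs, and of each further pathway or regulator list up to 4 called genes with the smallest adjusted p are named. Eno1, Pdk4 and Hif1a are given beside these and were chosen after their values were seen. Pgd, Idh1 and Me3, which were not called, are also given outside this rule.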

Additional observations from a re-analysis of the deposited data

Results flagged for a closer look

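In 5 of 76 groups of 4 libraries a single library stood far from the other 3, where chance alone gives about 1 in 20 such groups. Tpi1 had 312 CPM in Sham replicate 3 and 276 to 280 CPM in the other Sham libraries. Idh3g had 241 CPM in DEN replicate 4 and 271 to 273 CPM in the other DEN libraries. Mdh1 had 319 CPM in DEN replicate 1 and 288 to 293 CPM in the other DEN libraries. Suclg2 had 66.7 CPM in DEN replicate 4, with 69.8 to 70.3 CPM in the other DEN libraries, and 79.2 CPM in Sham replicate 4, with 64.2 to 65.4 CPM in the other Sham libraries. None of these genes passed the test between DEN and Sham, and the cause was not tested.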

How the results depend on the processing

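Over 16 alternative settings and 36 members, 542 of 576 member results stayed on their side of the threshold, 22 lost a call, 12 gained one, and no called member turned its direction. Of the 4 calls, Pgk1 passed in 16 settings, Pdk3 in 13, Idh2 in 9 and Pfkm in 4. RLE scaling, totals without mitochondrial genes and added copies kept the 4 calls and added none. DESeq2 called 4 glycolysis genes higher and 1 pyruvate dehydrogenase gene lower. With all 8 libraries 3 glycolysis genes were higher and 0 lower. With limma 0 glycolysis genes were lower, and with no filter 0 glycolysis genes and 1 pyruvate dehydrogenase gene were lower. The cause of these shifts was not tested.

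Leaving out 1 library each gave 575 to 900 genes higher and 523 to 914 lower. In glycolysis it gave 1 to 3 genes higher and 0 lower, in pyruvate dehydrogenase 0 to 1 higher and 0 to 1 lower, and in the citric acid cycle 0 to 1 lower. The median log2 fold change of the citric acid cycle ranged from 0.028 to 0.096, and glycolysis exceeded it by 0.037 to 0.15. The lowest counts came without DEN replicate 2 (575 higher, 523 lower), and 611 and 597 genes were lower without DEN replicates 3 and 4.

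Replicate numbers did not pair the mice (correlation of same-numbered deviations -0.13 to 0.05). With a replicate block, 649 genes were higher and 686 lower, with 0 glycolysis genes lower and, in pyruvate dehydrogenase, 0 higher and 1 lower. With the block and all 8 libraries, 2 glycolysis genes were higher, 0 lower, and 0 citric acid cycle genes lower. With all 8 libraries, Hk2/Hk1, Pfkp/Pfkm, Pfkl/Pfkm and Pdk3/Pdk2 had an adjusted exact permutation p of 0.05, at the threshold and not under it, and no ratio passed under any other alternative. With 1 library left out, the 15 or 20 arrangements cannot reach the threshold.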

Other observations

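Of 7 pentose phosphate genes, 1 was called, where 10.6% of all genes tested passed. G6pdx, which commits glucose 6-phosphate to this pathway and yields NADPH, had 74.5, 72.3 and 62.1 CPM in DEN replicates 2 to 4, 75.8 CPM in DEN replicate 1, and 57.7, 49.9, 52.2 and 53.1 CPM in Sham replicates 1 to 4 (log2 fold change 0.39, SE 0.09, edgeR adj. p-value 0.0205). All DEN libraries lay above all Sham libraries. Of the genes of NADPH supply that were called, G6pdx and Me1 rose and Idh2 fell. Pgd, Idh1 and Me3, of the same lists, were not called. Their log2 fold changes were 0.13, -0.22 and 0.07, with edgeR adj. p-values of 0.427, 0.278 and 0.893.

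Of 24 hypoxia genes and metabolic regulators tested, 3 were called, a share near the 10.6% of all genes, and each was higher in DEN. Over the 24, the log2 fold change was above 0 for 14 and below 0 for 10, with a median of 0.02. Ndrg1, a stress and hypoxia responsive gene, averaged 462 ± 74.3 CPM in DEN and 252 ± 32.2 CPM in Sham (log2 fold change 0.87, SE 0.12, edgeR adj. p-value 0.0017), with 607 CPM in DEN replicate 1. Bnip3, a mitophagy receptor, averaged 26.5 ± 1.68 CPM in DEN and 19.5 ± 2.14 CPM in Sham (log2 fold change 0.44, edgeR adj. p-value 0.0346). Tfam, which packages and transcribes mitochondrial DNA, averaged 64.2 ± 4.99 CPM in DEN and 47.7 ± 2.45 CPM in Sham (log2 fold change 0.43, edgeR adj. p-value 0.0093), while mitochondrially encoded genes took a smaller share of the counts in every DEN library than in any Sham library. Hif1a itself averaged 56.9 ± 5.34 CPM in DEN and 56.0 ± 4.33 CPM in Sham (edgeR adj. p-value 0.926).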
